A study of Homo sapiens with 3 samples.

Results

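The peak-poor stretches of chromosomes 8, 9 and 18 in the established lung adenocarcinoma cell line H2087 were described from ChIP-seq peak lists of H3K4me3 and H3K27ac. The stretches were set as chromosome 8 below 30 Mb (8p), chromosome 9 below 30 Mb (9p) and chromosome 18 from 20 Mb on (18q), and their members were the 501 protein-coding gene starts of GENCODE 44 in them, of 20163 in all. There were 209 starts in the 8p stretch, 100 in the 9p stretch and 192 in the 18q stretch. The stretches were selected on their low numbers of H3K4me3 and H3K27ac peaks in these lists, so the shares of marked starts and the numbers of peaks below are a description and were not tested. The cells were untreated and were grown in RPMI medium with fetal bovine serum. The labels gave 3 samples, 1 library for each of the 2 marks and 1 input library, which was not analysed here. Without replicates, no value has a replicate error, and the 95% intervals below are exact (Clopper-Pearson for shares, Poisson for densities) and cover counting error only.

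For each gene the outermost annotated 5′ end on hg19 was taken as its start, which was called marked when the edge of a peak lay within 1 kb. Each peak has a −log10 q, which was read from the last column of the lists and grows as the peak stands out more clearly from its background. H3K4me3 is laid down around the starts of active and poised genes, mostly where CpG dinucleotides are dense, whereas H3K27ac is found at active promoters and enhancers. A start was called CpG-rich when the 1 kb around it had at least 50% GC and an observed to expected CpG ratio of at least 0.6. Such starts belong mainly to broadly expressed genes and to regulators of development, and usually carry H3K4me3 in any cell type. The short arm of chromosome 9 holds the cell cycle inhibitors CDKN2A and CDKN2B, and the long arm of chromosome 18 holds the TGF-β mediators SMAD2 and SMAD4, all of which are known as tumour suppressor genes. The lists hold no read counts and copy number was not measured, so a stretch with few peaks cannot be told apart here from a stretch with few reads.

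Marked and unmarked starts inside the stretches are illustrated by 4 promoters, given 5′ to 3′ on the strand of the gene up to the base before its start, from the GRCh37 reference, with CpG dinucleotides in capitals. On chromosomes 9 and 18, the marked gene with the highest H3K4me3 −log10 q was paired with the unmarked tumour suppressor gene that had the highest CpG ratio among those whose upstream bases lie outside annotated exons. RCL1 encodes a factor for ribosomal RNA processing and carried H3K4me3 (chr9:4792744-4792943, plus strand, 25 CpG in 200 bases). CDKN2A carried neither mark (chr9:21995301-21995480, minus strand, 20 CpG in 180 bases). NPC1 encodes the protein that exports cholesterol from lysosomes, and its upstream bases lay within an H3K4me3 peak (chr18:21166471-21166670, minus strand, 19 CpG in 200 bases). SMAD2 carried neither mark (chr18:45457518-45457717, minus strand, 32 CpG in 200 bases). Since the unmarked genes were picked for their CpG ratio, these examples do not compare the density of CpG between marked and unmarked promoters.
RCL1: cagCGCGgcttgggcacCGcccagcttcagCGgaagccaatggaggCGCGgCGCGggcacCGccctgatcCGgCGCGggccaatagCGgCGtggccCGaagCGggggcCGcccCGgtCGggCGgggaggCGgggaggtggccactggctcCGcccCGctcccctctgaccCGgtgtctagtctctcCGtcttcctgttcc
CDKN2A: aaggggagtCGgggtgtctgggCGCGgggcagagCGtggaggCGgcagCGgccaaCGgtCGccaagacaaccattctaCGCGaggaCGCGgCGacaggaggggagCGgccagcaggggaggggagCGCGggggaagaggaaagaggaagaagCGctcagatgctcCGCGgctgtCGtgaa
NPC1: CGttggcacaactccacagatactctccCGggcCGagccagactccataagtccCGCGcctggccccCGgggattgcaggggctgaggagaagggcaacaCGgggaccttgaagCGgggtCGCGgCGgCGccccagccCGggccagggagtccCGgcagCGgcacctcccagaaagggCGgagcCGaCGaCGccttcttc
SMAD2: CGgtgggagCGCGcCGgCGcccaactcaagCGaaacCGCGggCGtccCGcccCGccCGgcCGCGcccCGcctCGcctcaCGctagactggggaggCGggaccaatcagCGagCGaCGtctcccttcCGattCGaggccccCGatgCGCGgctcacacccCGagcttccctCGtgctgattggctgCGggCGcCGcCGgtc

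Of the 501 members, 17 carried H3K4me3 (3.39%, 95% interval 1.99 to 5.38) and 10 carried H3K27ac (2.0%, 0.961 to 3.64). Over all 20163 starts, 38.2% carried H3K4me3 and 23.6% H3K27ac. Either mark was present at 24 members (4.79%, 3.09 to 7.04), against 43.2% of all starts. Both marks were present at only 3 members, CTSB, CNTLN and MBD1, against 18.6% of all starts. In the 8p stretch, H3K4me3 was at 3 of 209 starts (1.44%) and H3K27ac at 4 (1.91%). In the 9p stretch, which had the highest share with either mark (9.0%, 4.2 to 16.4), the counts were 6 and 4 of 100. In the 18q stretch, H3K4me3 was at 8 of 192 starts (4.17%) and H3K27ac at 2 (1.04%). The intervals for either mark overlapped among the 3 stretches. Outside the limits, either mark was at 53.4% of the 500 starts of the rest of chromosome 8, at 43.1% of 699 on the rest of chromosome 9, and at 39.2% of 74 on the rest of chromosome 18. The 869 starts of chromosome X had a share close to that of the stretches, with either mark at 3.91% (2.72 to 5.42).

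The low share was seen in both classes of promoter. Of the members, 272 were CpG-rich, and 23 of these were marked (8.46%, 5.44 to 12.4). Among all CpG-rich starts, 57.3% carried H3K4me3, 33.4% H3K27ac and 62.9% either mark. By stretch, 5 of 84 CpG-rich starts were marked in 8p, 9 of 54 in 9p and 9 of 134 in 18q. Among the 229 members that were not CpG-rich, only the start of CTSB was marked, against 1407 of 7815 such starts on the autosomes outside the stretches.

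**Figure D1:**
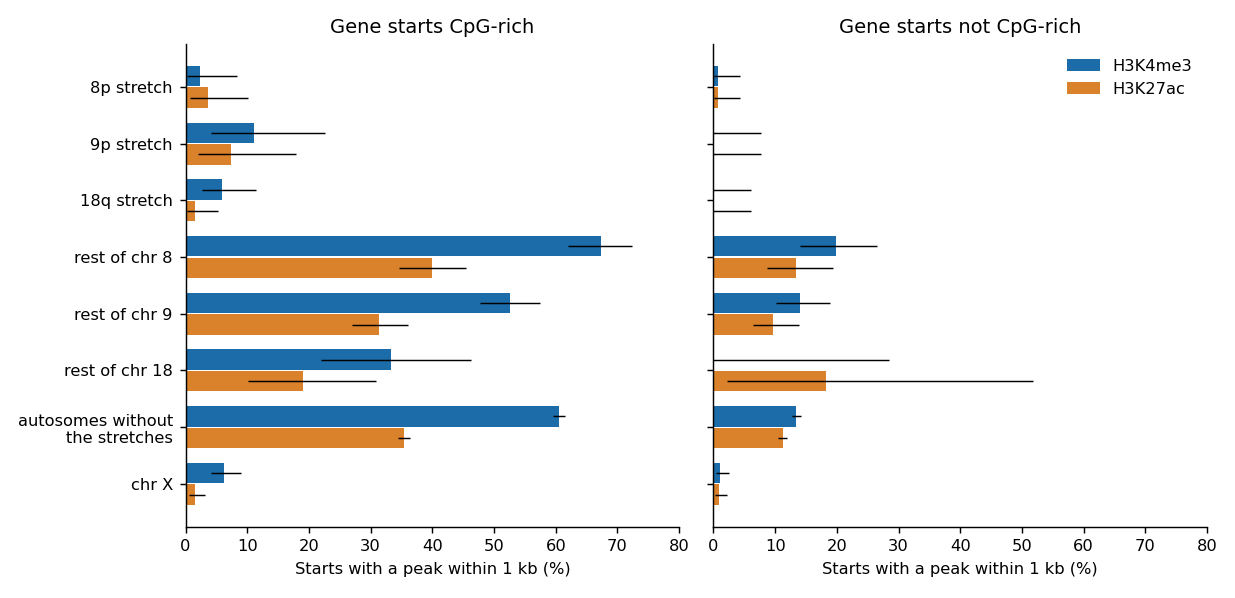
Share of protein-coding gene starts with an H3K4me3 (blue) or H3K27ac (orange) peak within 1 kb, in percent, for CpG-rich starts (left) and other starts (right). Bars are single libraries and lines are exact 95% intervals; CpG-rich starts of the stretches reached at most 11.1% for H3K4me3, against 60.6% on the autosomes outside them.

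At the marked starts of the stretches, the median −log10 q and the median width were below those at marked starts elsewhere. The median −log10 q, taking the highest peak of each start, was 2.97 for H3K4me3 (range 1.55 to 6.39, n = 17) against 3.76 at the 7658 marked starts of the other autosomal regions. For H3K27ac it was 2.16 (1.40 to 4.01, n = 10) against 3.05. The median widths were 294 bp against 412 bp for H3K4me3 and 236 bp against 328 bp for H3K27ac. H3K27ac accompanied H3K4me3 at 3 of 17 starts (17.6%, 3.8 to 43.4) against 48.8% elsewhere.

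In the 8p stretch 6 genes carried a mark. CTSB encodes the lysosomal protease cathepsin B, and it was the member with the most peaks. Within 1 kb of its start (11.73 Mb) it had H3K27ac peaks of −log10 q 4.01 and 2.85 and an H3K4me3 peak of 2.03. The gene as a whole held 13 H3K27ac and 7 H3K4me3 peaks. NEIL2 (11.63 Mb), a DNA glycosylase of base excision repair, had an H3K27ac peak of 1.55 that ended 393 bp upstream of its start. XPO7 (21.78 Mb), a nuclear transport receptor, had an H3K27ac peak of 2.16 in its first kilobase, and C8orf58 (22.46 Mb) had one of 1.55. H3K4me3 without H3K27ac was found at EGR3 (22.55 Mb), an early growth response transcription factor, with a −log10 q of 2.92, and at SARAF (29.94 Mb), a regulator of calcium entry, with 2.97.

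In the 9p stretch 9 genes carried a mark. The highest H3K4me3 −log10 q, 3.76, was found at RCL1 (4.79 Mb), whose peak of 179 bp began 68 bp downstream of the start, and at CNTLN (17.13 Mb), which encodes a centrosomal protein. CNTLN had a second H3K4me3 peak of 3.16 and 608 bp on the other side of its start, overlapped by an H3K27ac peak of 1.89 and 509 bp. SNAPC3 (15.42 Mb), a subunit of the complex that activates small nuclear RNA genes, had an H3K4me3 peak of 3.72. KIAA2026 (6.01 Mb) had an H3K4me3 peak of 2.97. Among transcription factors of the doublesex family, DMRT3 (0.98 Mb) had an H3K4me3 peak of 2.23 and DMRTA1 (22.45 Mb) one of 3.16. H3K27ac alone was found at UHRF2 (6.41 Mb), a ubiquitin ligase that binds modified cytosine, where the −log10 q of 1.40 was the lowest of any peak at a member. The divergent genes IFT74, for intraflagellar transport, and PLAA, a ubiquitin-binding protein (both 26.95 Mb), shared a single H3K27ac peak of 2.16, so they are not independent observations.

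In the 18q stretch 9 genes carried a mark, and 3 of them, RMC1, NPC1 and LAMA3, started between 21.08 and 21.27 Mb, near the limit, with the unmarked start of ANKRD29 between NPC1 and LAMA3. The H3K4me3 peak across the start of NPC1 (21.17 Mb) had a −log10 q of 6.39 and 679 bp, above 92.1% of the H3K4me3 list, and was the strongest and widest peak at any member. RMC1 (21.08 Mb), a factor of lysosomal trafficking, had an H3K27ac peak of 2.22. LAMA3 (21.27 Mb), a laminin chain of the epithelial basement membrane, had H3K4me3 peaks of 2.92 and 2.97. The other marked starts lay far apart. CTIF (46.07 Mb), a factor of cap-dependent translation, had an H3K4me3 peak of 2.97. MBD1 (47.81 Mb), which binds methylated CpG, had H3K4me3 of 2.23 and H3K27ac of 2.16 in overlapping peaks. H3K4me3 alone was found at RNF152 (59.56 Mb, 1.55), at VPS4B (61.09 Mb, 2.23), an ATPase of membrane scission, at CNDP2 (72.16 Mb, 2.97), a cytosolic dipeptidase, and at PTGR3 (72.92 Mb, 1.55).

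**Figure D2:**
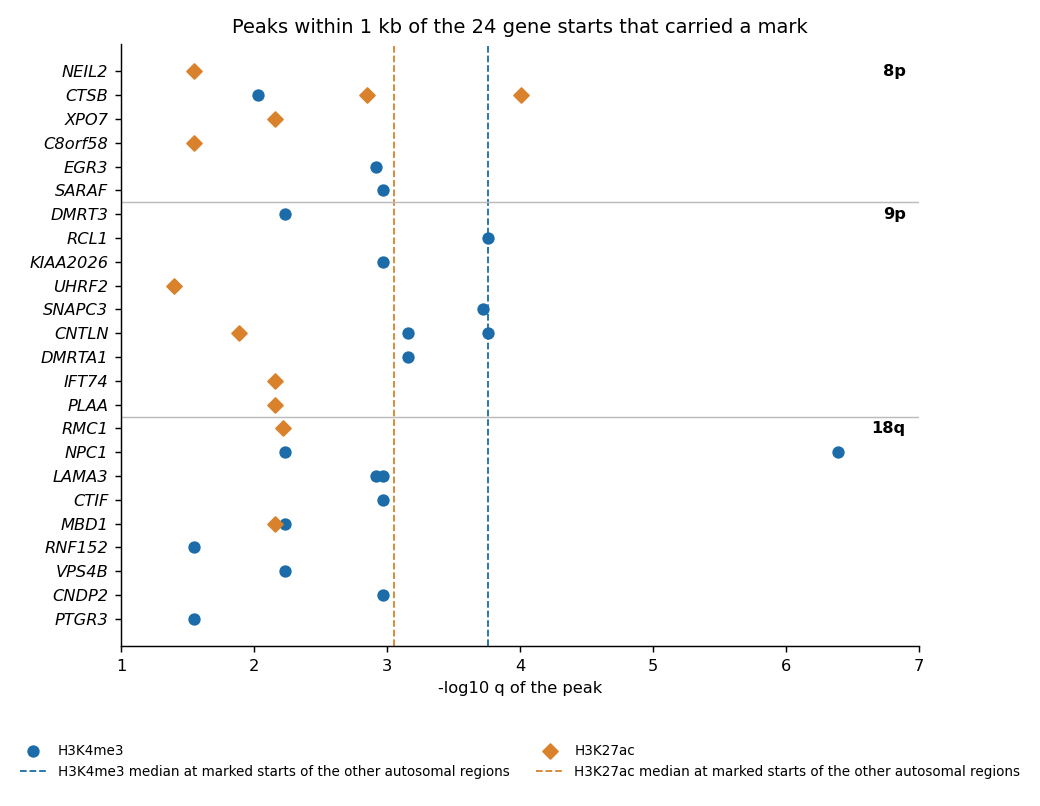
The −log10 q of each H3K4me3 (blue circles) and H3K27ac (orange diamonds) peak within 1 kb of the 24 marked gene starts, in chromosomal order within the 8p, 9p and 18q stretches. Dashed lines are the medians at marked starts of the other autosomal regions (3.76 and 3.05, highest peak of each start); only NPC1 lay well beyond them for H3K4me3 and only CTSB for H3K27ac.

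The limit of 1 kb decided some calls. The H3K4me3 peak of CTSB was 963 bp from its start and counted, whereas the H3K27ac peak of ZNF24, a zinc finger gene at 32.93 Mb on chromosome 18, was 1105 bp away and did not. At 3 kb, H3K27ac was at 5 starts instead of 2 in 18q (2.6%) and at 5 instead of 4 in 8p (2.39%), H3K4me3 was at 10 instead of 8 in 18q (5.21%), and the other counts by stretch and mark were the same. With the starts of every annotated transcript, 13 further member genes had a mark at an inner start, among them FDFT1, KDM4C, CABLES1, TTC39C, MYO5B, NFATC1 and EXTL3. With these starts, H3K27ac was at 7 genes in 8p, 6 in 9p and 6 in 18q (3.12%, against 1.04% at outer starts), and H3K4me3 at 5, 7 and 12, whereas elsewhere on the autosomes 48.5% of genes had H3K4me3 and 32.9% H3K27ac. FDFT1 encodes squalene synthase, the enzyme that commits its substrate to sterol synthesis. Its outer start was unmarked, but the starts of 18 of its 21 transcripts were marked, and H3K4me3 peaks of 8.24 and 4.6 lay 12.4 kb and 6.4 kb from the outer start. Starts of long non-coding RNA genes were also rarely marked. H3K4me3 was at 4 of 233 such starts in 8p, at 0 of 125 in 9p and at 2 of 354 in 18q, against 14.1% elsewhere on the autosomes.

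Of the tumour suppressor genes, 46 had been listed for the 3 stretches, with 47 starts because PINX1 had 2 entries. Only 1 start was marked (2.13%), that of EGR3 with H3K4me3, and no start carried H3K27ac. This is to be read against 4.79% of all members and 43.2% of all starts with either mark, and nothing particular to tumour suppressor genes follows from it. Of the 34 CpG-rich starts of the list 33 were unmarked, where 8.46% of all CpG-rich members were marked. Among the 46 unmarked starts, the nearest peak of either list lay at a median distance of 667 kb (interquartile range 167 to 1530), and 36 of them had no peak within 100 kb. The 477 unmarked members together had a median of 527 kb, and the 10074 unmarked starts of the other autosomal regions one of 38.8 kb.

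On chromosome 9, CDKN2A (start at 21995300) and CDKN2B (22.01 Mb), the inhibitors of the cyclin D kinases, lay 452 kb and 438 kb from the nearest peak, which was the H3K4me3 peak of DMRTA1. None of the 14 annotated transcript starts of CDKN2A was marked. MTAP (21.8 Mb), a neighbour of CDKN2A that encodes an enzyme of methionine salvage, lay 644 kb from that peak. The receptor phosphatase gene PTPRD (10.61 Mb) lay 3610 kb from any peak, the largest distance for a listed 9p gene. KLHL9, TUSC1, DOCK8, KANK1, SMARCA2 and FOCAD were unmarked as well.

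On chromosome 18, SMAD4 (48.55 Mb) lay 747 kb and SMAD2 (45.46 Mb) 608 kb from the nearest peak. The outer start of SMAD4 was not CpG-rich, but none of its 24 transcript starts was marked either. The netrin receptor gene DCC (49.87 Mb) lay 2060 kb from a peak, and SOCS6 (67.96 Mb), an inhibitor of cytokine signalling, 4210 kb. CABLES1 (20.71 Mb), which encodes a partner of cyclin-dependent kinases, was unmarked at its outer start, but an H3K27ac peak of 5.12 lay 2.3 kb away and 4 of its 10 transcript starts were marked. PHLPP1, NEDD4L, PIGN, SERPINB5, RBBP8, MEX3C, ZNF516 and GALR1 were unmarked.

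On chromosome 8, DLC1 (13.46 Mb) lay 1620 kb from the nearest peak and TUSC3 (15.27 Mb) 3430 kb. The largest distance among all listed genes was that of ARHGEF10 (1.77 Mb), 5180 kb. Some 8p genes lay close to peaks of their neighbours, such as CCAR2 at 5.75 kb from the H3K27ac peak of C8orf58 and DOK2 at 6.31 kb from that of XPO7. RHOBTB2 had an H3K27ac peak of 2.16 at 1 of its 10 transcript starts, and BNIP3L, a mitophagy receptor, an H3K4me3 peak of 2.23 in an intron. The phosphatase gene DUSP4 and the transcription factor gene GATA4 had no mark at the start.

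**Figure D3:**
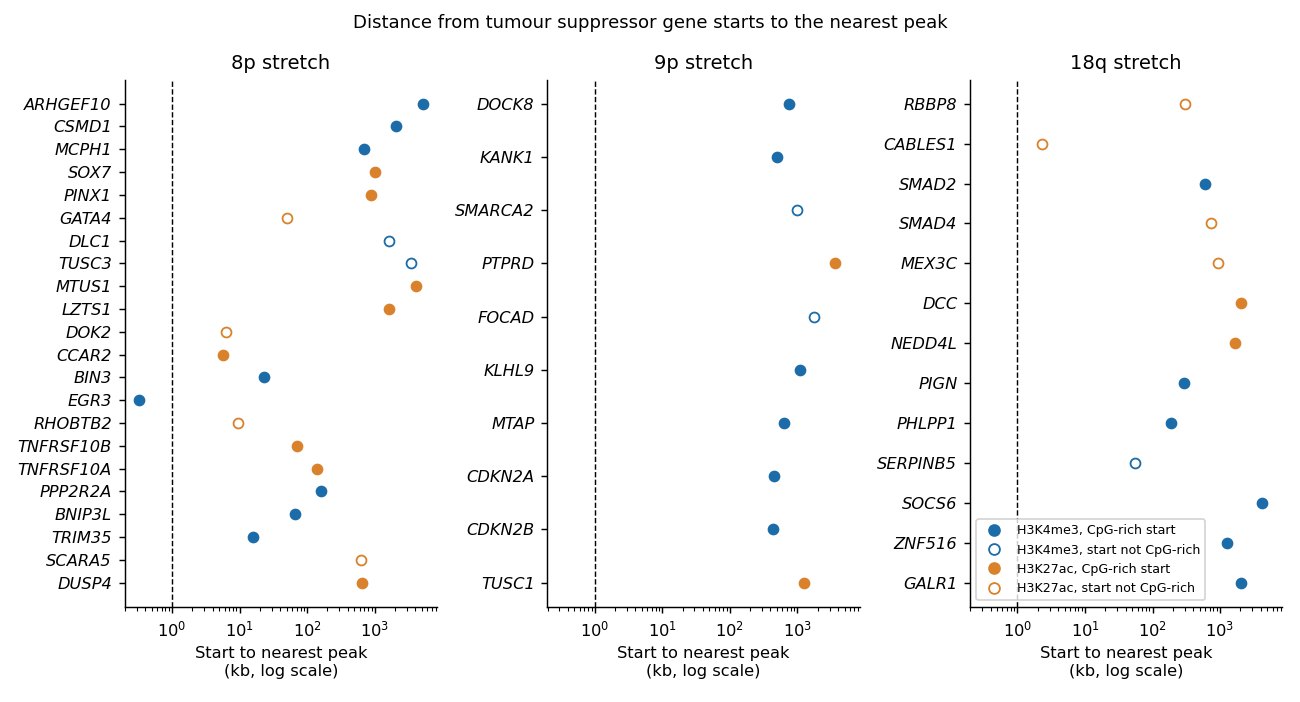
Distance in kb, on a log axis, from the outer start of listed tumour suppressor genes to the nearest peak of either list, coloured by the mark of that peak and filled where the start was CpG-rich. PINX1 is drawn once and the dashed line is 1 kb; EGR3 (322 bp) is the only gene drawn to its left, and CDKN2A and SMAD4 lie at 452 kb and 747 kb.

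Genes needed in most cells mostly lacked a mark too. Of 73 broadly expressed genes listed for the stretches, 11 had a mark (15.1%), which were 2 of 21 in 8p, 5 of 16 in 9p and 4 of 36 in 18q, against 4.79% of all members and 43.2% of all starts. IFT74 and PLAA, which shared a single H3K27ac peak, count as 2 of the 5 in 9p. The list was made with earlier results of these data known, so nothing follows from its share being above that of all members. The unmarked genes included RPS6 and RPL17, which encode ribosomal proteins, ATP5F1A, a subunit of the mitochondrial ATP synthase, and NARS1, an aminoacyl-tRNA synthetase. RPS6 lay 2110 kb, ATP5F1A 2380 kb and NARS1 2090 kb from the nearest peak. Of these 73 starts, 60 were CpG-rich, and 50 of the 60 were unmarked, as were 249 of all 272 CpG-rich members. In 4 gene families of the stretches, 0 of 17 interferon, 0 of 26 defensin, 0 of 10 SERPINB and 0 of 7 desmosomal cadherin genes were marked. Of these 60 starts 56 were not CpG-rich, a class in which 0.437% of all members were marked, so the counts are not particular to the families. The 4 TRAIL receptor genes, which encode death receptors and decoy receptors, were unmarked, as were JAK2 and the checkpoint ligand genes CD274 and PDCD1LG2, and SMAD7. Outside the stretches, 6 of 8 genes typical of lung epithelial cells, such as NKX2-1, KRT7 and EPCAM, carried a mark, NAPSA and SFTPB did not, and 0 of 5 markers of blood, vessel and connective tissue cells that were found did.

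The borders were estimated for each chromosome as the single position that best divided its starts into a marked and an unmarked part, up to 60 Mb on chromosomes 8 and 9. On chromosome 8 the border lay at 37.1 Mb, between the potassium channel gene KCNU1 (36.64 Mb) and ZNF703 (37.55 Mb), a transcriptional regulator known from breast cancer amplicons. It was thus beyond the limit of 30 Mb, with 6 of 229 starts marked before it (2.62%) and 45 of 96 after it (46.9%). The last marked gene before the border was SARAF, and ZNF703 and ERLIN2, with both marks, and ADGRA2, with H3K27ac, followed it. On chromosome 9 the border lay at 32.54 Mb, between RIGI (32.53 Mb), which encodes a sensor of viral RNA, and SMIM27 (32.55 Mb). The change was abrupt, with 9 of 102 starts marked before it (8.82%) and 65 of 128 after it (50.8%). The part after the border was uneven. From 10 to 15 Mb beyond the limit of 30 Mb, 0 of 14 starts had either mark, and from 15 to 20 Mb beyond it 0 of 6. No protein-coding gene started between LINGO2 (29.21 Mb) and ACO1 (32.38 Mb), so the limit of 30 Mb fell into a gene-free interval. The first marked genes after it were SMIM27, TOPORS and ENSG00000288684, all with H3K4me3 and with starts too close together to count as separate observations.

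On chromosome 18 the border lay at 21.42 Mb, between LAMA3 (21.27 Mb) and TTC39C (21.57 Mb), inside the limit of 20 Mb. Of the 82 starts before it 32 were marked (39.0%), and of the 184 after it 6 (3.26%). RMC1, NPC1 and LAMA3 were the last marked genes before the border, and CTIF, MBD1 and RNF152 the first after it. With H3K27ac alone, the borders lay at 33.12 Mb on chromosome 9 and at 21.12 Mb on chromosome 18. With H3K4me3 alone, all 3 were the same as with either mark. The starts just inside and just outside the chosen limits, LEPROTL1 and MBOAT4, LINGO2 and ACO1, and RBBP8 and CTAGE1, were all unmarked.

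**Figure D4:**
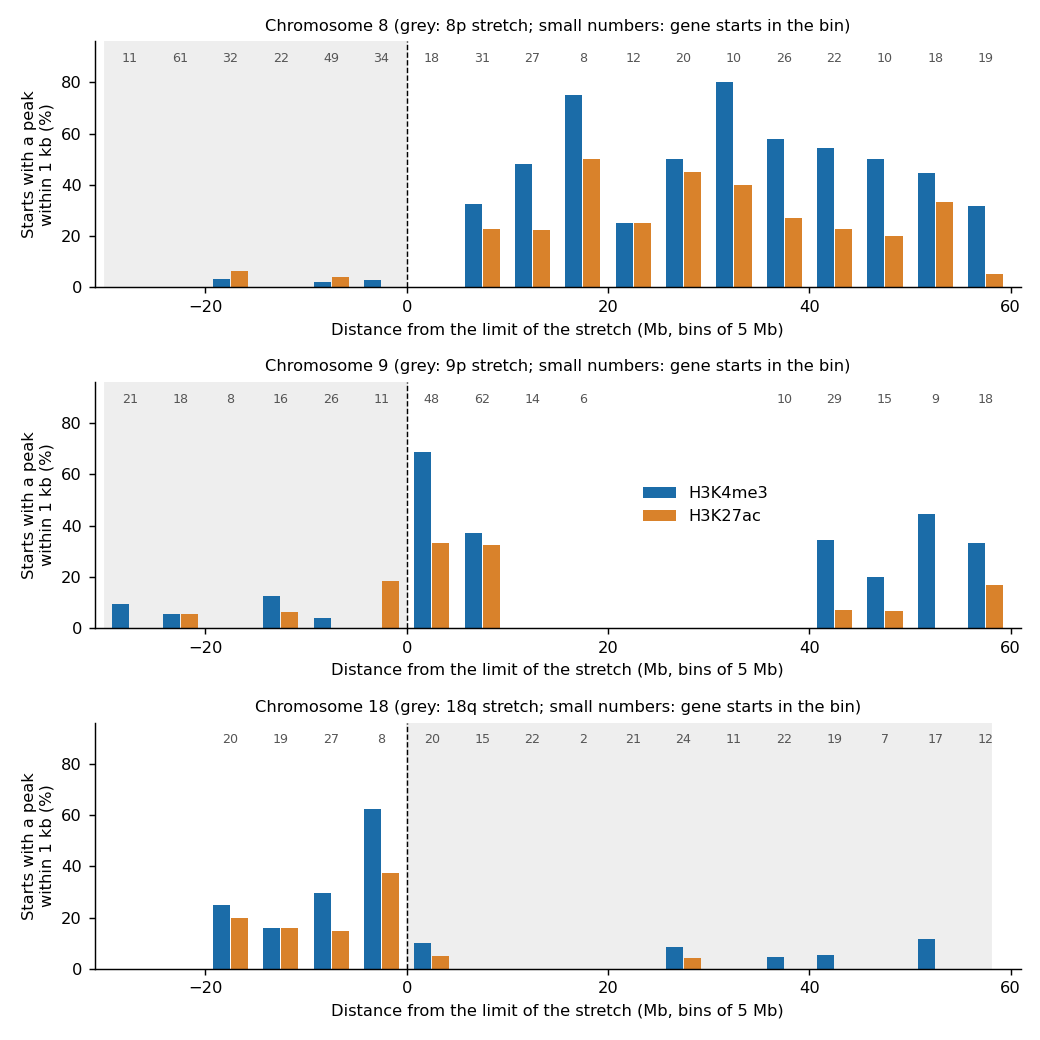
Share of protein-coding gene starts with an H3K4me3 (blue) or H3K27ac (orange) peak within 1 kb, in percent, in bins of 5 Mb by distance from the limit of each stretch, with the number of starts above each bin. The grey area is the stretch; the first bin beyond the 8p limit is still empty, whereas 68.8% of the starts in the first bin beyond the 9p limit had H3K4me3.

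The stretches were also poor in peaks away from gene starts. Per Mb of assembled sequence and over 3 kb from any protein-coding start, the 8p stretch had 0.435 H3K4me3 and 0.836 H3K27ac peaks, the 9p stretch 0.100 and 0.233, and the 18q stretch 0.104 and 0.329. The autosomes outside the stretches had 2.865 and 6.495. The rest of chromosome 18 was itself poorer than this, with 1.539 and 2.546, whereas the rest of chromosome 8 was richer, with 3.805 and 8.035.

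**Figure D5:**
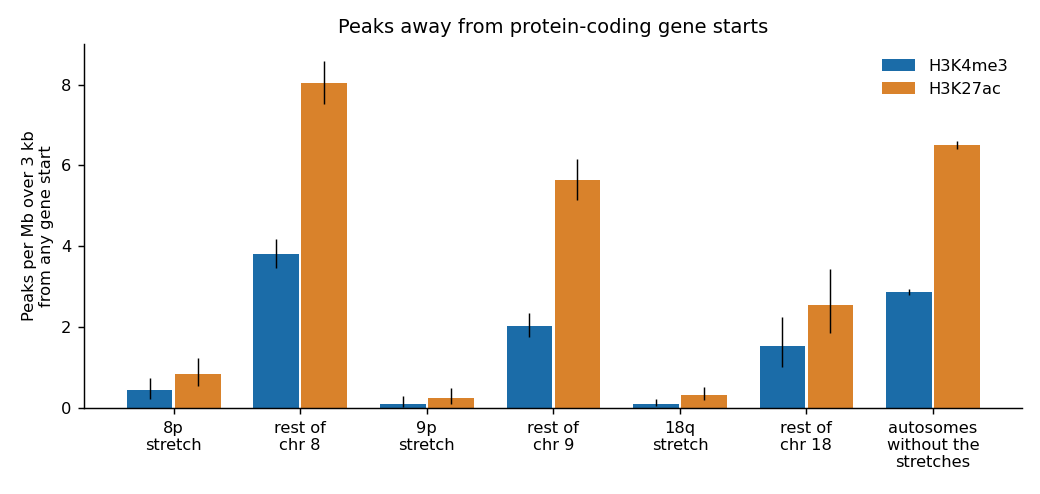
Peaks per Mb of assembled sequence over 3 kb from any protein-coding gene start, for H3K4me3 (blue) and H3K27ac (orange), with exact 95% Poisson intervals. The bars of the 3 stretches, 0.100 to 0.836 peaks per Mb, lie below those of the rest of their own chromosomes.

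The peaks found in the stretches were clustered. In the 8p stretch, 32 of the 52 peaks (61.5%), 10 of H3K4me3 and 22 of H3K27ac, lay between 11585091 and 11750060 on chromosome 8, a span of 165 kb from an intron of GATA4 over NEIL2 and FDFT1 to just upstream of CTSB. The strongest H3K27ac peak of the stretch (−log10 q 5.74) lay 7.9 kb upstream of CTSB. Outside the cluster, all peaks together, near starts or not, came to 0.303 per Mb for H3K4me3 and 0.37 per Mb for H3K27ac. Counted in the same way, the autosomes outside the stretches had 7.2 and 9.35 per Mb. In the 18q stretch, 9 of 18 H3K4me3 peaks and 17 of 24 H3K27ac peaks lay below 22 Mb, around CABLES1, NPC1, LAMA3 and TTC39C, and from 22 Mb on the densities of all peaks were 0.161 and 0.126 per Mb. The 9p stretch had 10 peaks of each mark and no such cluster.

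Some H3K27ac and H3K4me3 peaks lay within or near genes whose outer starts were unmarked. On chromosome 18, peaks of −log10 q 2.82, 2.82 and 1.55 lay 74.2 kb, 28.4 kb and 68.0 kb from SMAD7, which encodes an inhibitor of TGF-β signalling, and a peak of 2.16 lay in an intron of KCTD1. An H3K4me3 peak of 4.6 inside MYO5B, a motor protein of vesicle transport, marked 1 inner transcript start of that gene, 345.3 kb from its outer start. At TTC39C, H3K4me3 (3.76) and H3K27ac (2.16) overlapped at an inner start 21.6 kb from the outer one. On chromosome 9, H3K27ac peaks of 2.82, 4.32 and 1.39 lay in NFIB, a transcription factor gene of lung development, and the last of them lay at an inner transcript start. H3K27ac peaks of 2.16 and 1.96 lay in GLDC, the glycine decarboxylase gene, and one of 2.16 in an intron of CCDC171. On chromosome 8, an H3K27ac peak of 2.16 lay in an intron of the lysyl oxidase family gene LOXL2, and PTK2B, a focal adhesion kinase gene, held H3K27ac peaks of 2.16 and 1.55 and an H3K4me3 peak of 2.23 at an inner start.

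Some of the strongest peaks lay in repeated sequence, which can gather reads from several copies. The strongest H3K4me3 peak of the 8p stretch (9.18) lay at 6.95 Mb, near the defensin genes, and 50.5% of its 32-base words occurred more than once in the assembly. For the H3K4me3 peak near FAM90A15P (5.47) this share was 100.0%. It was 70.5% for the strongest H3K27ac peak of the 9p stretch (4.32, in an intron of NFIB) and 91.0% for an H3K27ac peak of 4.32 at 19.2 kb from CCBE1 on chromosome 18. The FDFT1 peak of 8.24 had 0.52% and the NPC1 peak of 6.39 had 0.0%. In the 8p cluster from GATA4 to CTSB, the share for H3K27ac peaks ran from 0.0% to 90.5%, with 34.8% for the strongest (5.74). Among the peaks at marked starts, the share was 41.3% for the only peak of NEIL2 (1.55). It was 59.3% for the H3K27ac peak nearest the start of CTSB (2.85), and every other such peak had at most 0.538%. The intronic H3K27ac peaks of 2.16 in LOXL2 and GLDC had 73.7% and 73.0%.

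The spans without any peak of either mark were among the longest of the autosomes, where gaps of the assembly of at least 1 Mb were left out. The longest, 13.14 Mb, ran from ZNF24 to CTIF on chromosome 18 and held 39 protein-coding starts, 27 of them CpG-rich. The next, 11.07 Mb with 30 starts, ran from VPS4B to CNDP2. In 8p, a span of 9.93 Mb with 40 starts led up to XPO7 and ranked 4th, and a further one of 7.25 Mb with 22 starts ran across the limit from SARAF. In 9p, the longest span was 7.46 Mb, with 5 starts, and the span that held the CDKN2A locus was 5.18 Mb, with 34 starts. Of the 10 longest spans, 6 lay wholly inside the stretches, as did 9 of the 20 longest. A further 8p span of 4.28 Mb, which ranked 20th by length, held 52 starts. The largest number of starts in a peak-free span outside the stretches was 56, more than in any span named here. How the number of starts was distributed over the other spans was not examined. The 8p and 9p stretches had no peak before 6.95 Mb and 0.98 Mb, and 22 and 7 starts lay beyond these peaks, whereas in 18q the last peak was 0.92 Mb from the end of the chromosome.

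Some other regions of the autosomes were as poor in marked starts as the 9p stretch, or poorer. In windows of 100 consecutive starts, the number marked was 2 to 5 in 8p, 9 in the only 9p window and 2 to 6 in 18q. Windows at or below 9 outside the stretches were found on chromosome 19 (124 windows from 39.9 to 54.6 Mb, lowest 0), chromosome 11 (31 windows from 47.7 to 59.3 Mb, lowest 6) and chromosome 6 (1 window from 26.2 to 30.2 Mb, with 9). Of these chromosomes, only chromosome 19 had windows below the 2 to 5 of 8p and the 2 to 6 of 18q. In windows of 50 consecutive CpG-rich starts, 2 to 4 were marked in 8p, 8 to 9 in 9p and 1 to 4 in 18q. Of 9835 such windows outside, 52 had 9 or fewer (lowest 3), and all 52 lay on chromosome 19. These windows overlap and the stretches were selected on their few peaks, so these counts are a description.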

How the data were processed

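H3K4me3 and H3K27ac ChIP-seq libraries of H2087 cells (n = 1 each) were sequenced by the authors on a HiSeq4000. Per the labels, reads were processed with bcl2fastq 1.8.4, Bowtie 1.1.1 (hg19), SAMtools 1.2 and Picard 1.118, peaks were called with MACS2 2.1.0, and ChIPseeker 1.6.6 assigned genes, which were not used here. The threshold, the handling of duplicates and the use of the input in peak calling are not given in the sources used here. The deposited lists hold peak positions and a value without a header, read from the numbers as the −log10 q of each summit (smallest 1.3). Depth is unknown. Entries (20282 for H3K4me3, 25275 for H3K27ac) were reduced to 18585 and 24096 distinct intervals, each with its highest −log10 q. Gene starts came from GENCODE 44 on GRCh37, and positions are 1-based. Borders were fitted as the division with the highest binomial likelihood. Peaks within 50 kb were joined into clusters. The functions were tested on simulated data. The stretches, the gene lists and the tests were chosen with earlier results of these data known. Named were all marked members, the listed tumour suppressor genes (1 is counted but not reported here), 3 marked genes on each side of a border, the strongest peaks, the longest peak-free spans and examples of the other lists. FDFT1 and the further genes with inner starts were named after their values were seen. Alternatives were another distance, threshold, set of starts, limit of the stretches and CpG criterion. Python 3.11.15, pandas 2.3.3, numpy 2.4.6 and scipy 1.17.1 were used.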

Additional observations from a re-analysis of the deposited data

How the results depend on the processing

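No paired analysis was possible because there was a single library per mark, and leaving out a replicate was not possible for the same reason. The borders stayed within 1 Mb of their values with either mark alone and with the peaks at or above the median −log10 q of their list. The shares of marked starts stayed within their 95% intervals with a distance of 3 kb, with the starts of any transcript, with the limits moved 5 Mb inwards, without 4 gene families and, an alternative chosen after seeing the data, up to the fitted borders. These intervals rest on few marked starts and are wide, so staying inside them is a weak check. For H3K27ac in 18q, the share rose from 1.04% to 3.12% with the starts of any transcript, inside an interval of 0.126 to 3.71. When the peak had to cover the start, 0.0% of the 8p starts had H3K4me3 and 0.0% H3K27ac, with 0.0% and 1.0% in 9p and 0.521% and 0.0% in 18q, but such peaks were rare elsewhere on the autosomes too (3.55% and 1.58%). With a −log10 q of at least 5, the share was 0.0% for both marks in 8p and 9p, and 0.521% (H3K4me3) and 0.0% (H3K27ac) in 18q, against 11.5% and 3.8% elsewhere. With those peaks at or above the median, H3K27ac was at 0.478% of the starts in 8p, at 0.0% in 9p and at 0.0% in 18q, against 16.0% elsewhere, and either mark was at 1.19% of the CpG-rich starts in 8p and 2.99% in 18q. The peaks per Mb away from starts were then 0.201 (H3K4me3) and 0.301 (H3K27ac) in 8p, and for H3K27ac 0.067 in 9p and 0.104 in 18q. By alternatives chosen after seeing the data, they were 0.202 and 0.269 in 8p without the peaks from GATA4 to CTSB, and 0.036 and 0.09 in 18q from 22 Mb on. In each of these cases fewer peaks qualified than in the main setting. With the peaks at or above the median, the H3K27ac share elsewhere on the autosomes fell from 25.3% to 16.0%. That was a smaller relative fall than in the stretches, where few starts were marked at the outset. The reason for these changes was not tested. Stricter CpG limits and the starts of all genes moved no value outside its interval.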
